A study of Mus musculus with 6 samples.

Results

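The genes described here are 10 genes of the NF-kB pathway, chosen by name with earlier results of these data known. They are the subunits Nfkb1, Nfkb2, Rela and Relb, and the inhibitors Nfkbia and Nfkbie. The others are the feedback enzyme gene Tnfaip3 and the target genes Birc2, Birc3 and Ptgs2. All 10 were found among the 22032 genes of the deposited table. They were followed in mDE6, a mouse cell line, with a short hairpin RNA against Arl4c, an ARF-family small GTPase (shArl4c, 3 libraries), or with a control hairpin (shControl, 3 libraries), and the column names of the table call the control a luciferase hairpin. The title of the series places it in tooth germ development and osteoblastic differentiation. The labels name 1 Arl4c hairpin, so that lower Arl4c cannot be told apart from anything else the hairpin did or from differences between the cultures. Whether the 3 libraries of a group were separate cultures is not stated. The p-values therefore rest on the spread between these libraries alone, and that spread may be technical.

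NF-kB is a family of dimeric transcription factors. In resting cells the dimers are held in the cytoplasm by IkB proteins or by the precursors of their own subunits. Signals from receptors of tumour necrosis factor, interleukin-1 or microbial products activate IkB kinases, the IkB proteins are degraded, and the dimers enter the nucleus. Among the first genes that they switch on are their own brakes, such as Nfkbia and Tnfaip3, which makes these genes a common readout of the pathway.

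Arl4c itself, the target of the hairpin, stood at 6.75, 7.42 and 6.89 CPM in shArl4c, against 20.7, 21.0 and 20.1 CPM in shControl (CPM, reads scaled by the authors to the size of each library; log2 fold change -1.43, limma adjusted p = 2.08e-10). The libraries held 12316770 to 14976113 reads, and the lowest count of any of the 10 genes in any library was 85 reads. Library shArl4c 3 stood apart from its group, with chi-square values of 5.74 and 4.87 (divided by the degrees of freedom) against the other shArl4c libraries, which gave 1.54 against each other. Leaving it out changed none of the calls of the 10 genes. Markers of several cell types were read, and the labels do not say which of these types mDE6 is. Tyrobp and Cd3e were among the leukocyte genes not listed in the table. The 7 listed of 10 leukocyte genes summed to 9.29 to 10.8 CPM in shArl4c and 6.95 to 8.19 CPM in shControl. Of these Cd68, a lysosomal gene of macrophages, was called higher (5.77 ± 0.207 CPM in shArl4c and 2.79 ± 0.397 CPM in shControl, SD, n = 3), while the leukocyte gene Ptprc stood at 0.0505 ± 0.0437 CPM in shArl4c and 0.0940 ± 0.0817 CPM in shControl. The 6 listed of 9 epithelial genes summed to 1.42 to 2.83 CPM in shArl4c and 4.21 to 6.99 CPM in shControl, and the 3 listed of 6 endothelial genes to 1.07 to 1.74 CPM in shArl4c and 1.48 to 2.07 CPM in shControl. The epithelial cadherin gene Cdh1 was at 0 CPM in all 3 shArl4c libraries and averaged 0.321 CPM in shControl, where a count of 0 allows 0.202 to 0.248 CPM over the 6 libraries, and the labels do not name the tissue that mDE6 came from. The 8 mesenchymal genes, Vim and Col1a1 among them, summed to 18499 to 19338 CPM in shArl4c and 30488 to 31899 CPM in shControl. Col1a1, Col1a2 and Prrx1 were called lower, Pdgfra (log2 fold change 0.76) and Pdgfrb (0.16) higher, Vim and Twist1 did not pass, and Thy1 was below the filter. Most of the sum was Col1a1, at 10139 ± 206.6 CPM in shArl4c and 17787 ± 480.4 CPM in shControl. Whether any of these cell types was present as separate cells is not shown, and their part in the results below was not tested. In bulk RNA fewer cells of a type and less RNA per cell cannot be told apart.

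Of the 10 genes, 7 were higher in shArl4c and none was lower by limma at an adjusted p under 0.05, and none was lower at an unadjusted p under 0.05 either. None of the 10 was removed by the filter at a mean of 1 CPM. Of all 14740 tested genes, 18.9% were called higher and 36.9% were called in either direction. Because the 10 genes were chosen with earlier results of these data known, these shares give scale and are not an independent test. On recovered reads edgeR called 6 of the 10 higher, against 17.7% of all genes, and DESeq2 called 5, against 13.6%, and neither called any lower. The apoptosis inhibitor genes Birc2 and Birc3 rose most, followed by Nfkbie, Ptgs2, Tnfaip3, Nfkb2 and Nfkb1, and Rela, Relb and Nfkbia did not pass. The median log2 fold change of the 10 genes was 0.28, against 0.0094 over all tested genes. The libraries of the groups did not overlap in 7 of the 10 genes, against 46.8% of all tested genes. Log2 fold changes were computed after 1 was added to each CPM, so that for low genes they come out smaller than the true ratio.

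**Figure D1:**
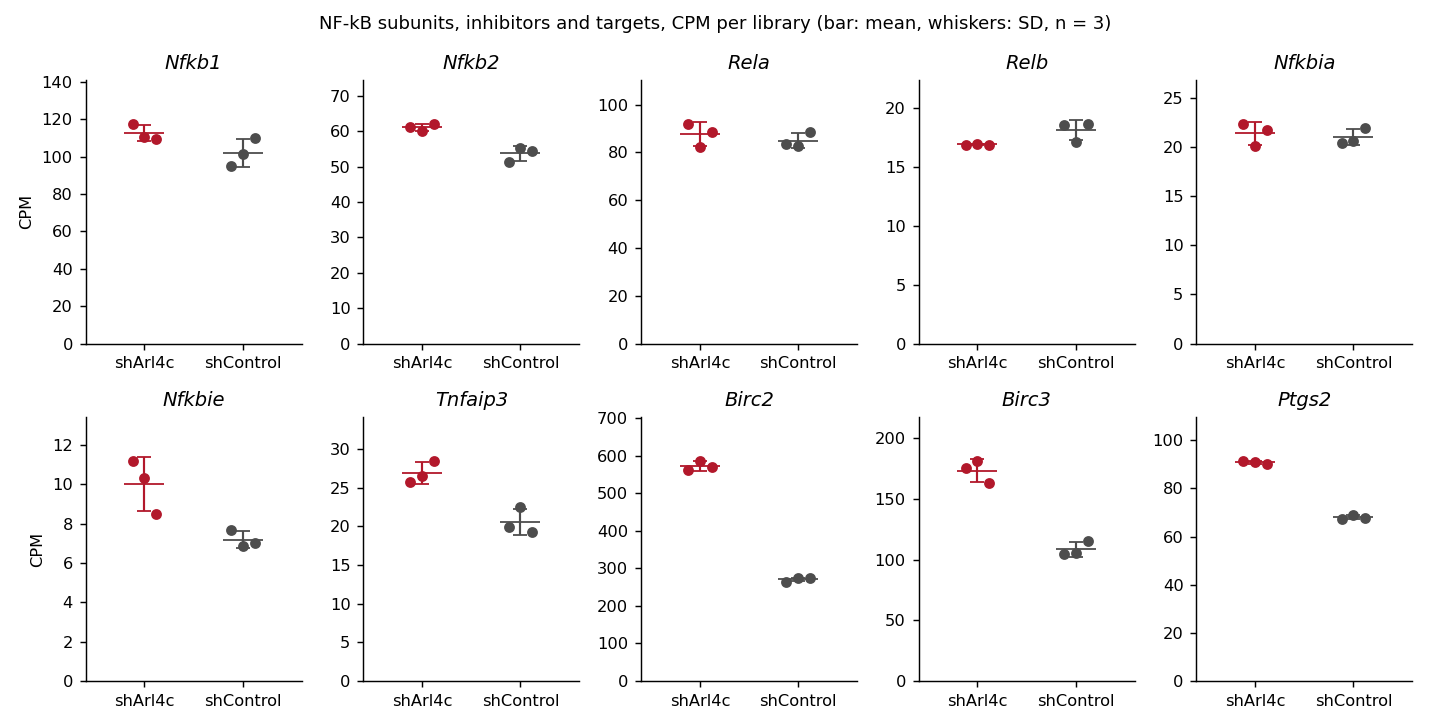
CPM of the 10 genes in each library, with 1 panel per gene, shArl4c on the left and shControl on the right; points are libraries, the bar is the mean and the whiskers are the SD (n = 3). The points of the groups lie apart for Birc2, Birc3, Ptgs2, Tnfaip3, Nfkbie and Nfkb2, narrowly apart for Relb, and overlap for Nfkb1, Rela and Nfkbia.

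Of the subunits, Nfkb1 and Nfkb2, which encode precursors that are processed into DNA-binding subunits, rose by small amounts. Nfkb1 was at 118, 111 and 109 CPM in shArl4c 2, 3 and 4, against 94.9, 101 and 109.8 CPM in shControl 1, 2 and 3. The groups met at one end, since the highest control library exceeded the lowest shArl4c library. The log2 fold change was 0.14 (SE 0.05, 95% interval 0.03 to 0.25, limma adjusted p = 0.039). The call of Nfkb1 was lost with edgeR on recovered reads (adjusted p = 0.055), with DESeq2 (adjusted p = 0.12) and without shArl4c 2, shArl4c 4, shControl 1 or shControl 2, and the log2 fold change without shControl 1 was 0.09.

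Nfkb2 was at 61.1, 60.04 and 62.1 CPM in shArl4c, against 51.4, 55.4 and 54.4 CPM in shControl. All 3 shArl4c libraries were above all 3 controls. The log2 fold change was 0.18 (SE 0.05, limma adjusted p = 0.0089), and the call was lost with DESeq2 (adjusted p = 0.067) and without shControl 1 (adjusted p = 0.062).

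Rela and Relb encode subunits with transactivation domains, Rela the main partner in the canonical pathway and Relb in the non-canonical pathway. Rela was at 92.0, 82.1 and 88.4 CPM in shArl4c, against 83.6, 82.6 and 88.4 CPM in shControl, with overlapping groups. Its log2 fold change was 0.04, with a 95% interval from -0.06 to 0.15 (limma adjusted p = 0.57), and with 1 library left out at a time it ran from 0.0059 (without shArl4c 2) to 0.087 (without shArl4c 3). Relb was at 16.9, 17.0 and 16.9 CPM in shArl4c, against 18.6, 17.1 and 18.7 CPM in shControl. The shArl4c libraries were all below the controls, by a margin between the nearest libraries smaller than the SD of the controls. The log2 fold change of Relb was -0.09 (95% interval -0.25 to 0.07, limma adjusted p = 0.39).

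The IkB proteins hold NF-kB dimers inactive. Nfkbia, which encodes IkB alpha, the inhibitor that is degraded and resynthesised fastest, was at 22.4, 20.1 and 21.7 CPM in shArl4c, against 20.4, 20.6 and 21.9 CPM in shControl. The groups overlapped. Its log2 fold change was 0.03, with a 95% interval from -0.13 to 0.18 (limma adjusted p = 0.83), so that the interval held neither a rise nor a fall of more than 0.18 on the log2 scale. Nfkbie, which encodes IkB epsilon, was at 11.2, 10.3 and 8.49 CPM in shArl4c, against 7.68, 6.86 and 7.03 CPM in shControl. It was higher in all 3 shArl4c libraries, but with the widest interval of the 10 genes: a log2 fold change of 0.42 (SE 0.12, 95% interval 0.18 to 0.66, limma adjusted p = 0.0075).

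Tnfaip3 encodes a ubiquitin-editing enzyme that shuts off signalling between the receptors and the IkB kinases. It was at 25.7, 26.5 and 28.5 CPM in shArl4c, against 19.9, 22.5 and 19.3 CPM in shControl. The groups did not overlap, and the means of 26.9 ± 1.42 CPM in shArl4c and 20.6 ± 1.72 CPM in shControl (SD, n = 3) differed 1.31-fold (log2 fold change 0.37, SE 0.08, limma adjusted p = 0.00066). Of the 3 feedback inhibitor genes, Tnfaip3 and Nfkbie thus passed and Nfkbia did not.

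**Figure D2:**
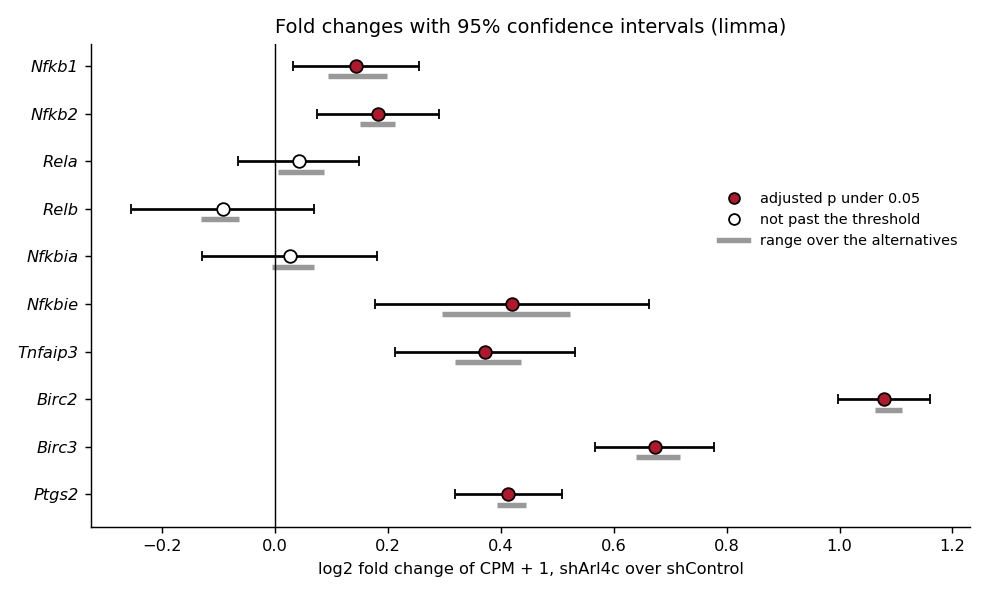
Log2 fold changes of CPM + 1, shArl4c over shControl, for the 10 genes on the x axis; points with whiskers are limma estimates with 95% intervals, filled where the adjusted p was under 0.05, and the grey bars give the range over the 18 alternative settings. Birc2 lies at 1.08 and Birc3 at 0.67, and the intervals of Rela, Relb and Nfkbia span 0.

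The promoters of the feedback genes are shown because NF-kB binds a short DNA motif, the kB site, through which it acts on these genes. RefSeq windows of 300 bases (250 before and 50 after a start, build GRCm38.p6, while the deposited values used GRCm39) were at hand for 8 of the 10 genes, Nfkb1 and Relb being the others. The kB consensus (GGG, then 1 purine, any 2 bases, 2 pyrimidines and CC, searched on both strands) was found in 4 of the 8 genes and in 6 of their 12 windows, counting another Nfkb2 window that overlaps the second and holds only a site that both share. It was found in 8.46% of all 32851 windows and in 10.3% of the windows of tested genes. Windows with a match belonged to Nfkb2, Nfkbia, Nfkbie and Tnfaip3, and the windows of Birc2, Birc3, Ptgs2 and Rela held no match to it. The looser pattern GGGNNNNNCC, which every match to the consensus also fits, was found on either strand in 10 of the 12 windows, against 50.8% of all windows and 66.5% of the windows of tested genes. Those 10 windows belonged to 7 of the 8 genes, with Birc2 the exception. The windows below run 5′ to 3′ on the strand of the gene, with matches to the kB consensus in capitals; overlapping matches and matches on both strands of 1 stretch are capitalised together.
Nfkbia (chr12:55492598-55492897, minus strand): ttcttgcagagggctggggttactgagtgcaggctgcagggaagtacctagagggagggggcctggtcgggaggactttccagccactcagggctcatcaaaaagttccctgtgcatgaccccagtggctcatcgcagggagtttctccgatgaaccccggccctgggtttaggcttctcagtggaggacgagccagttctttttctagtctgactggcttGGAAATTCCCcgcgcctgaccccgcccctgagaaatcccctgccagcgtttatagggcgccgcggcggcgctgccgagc
Nfkbie (chr17:45555450-45555749, plus strand): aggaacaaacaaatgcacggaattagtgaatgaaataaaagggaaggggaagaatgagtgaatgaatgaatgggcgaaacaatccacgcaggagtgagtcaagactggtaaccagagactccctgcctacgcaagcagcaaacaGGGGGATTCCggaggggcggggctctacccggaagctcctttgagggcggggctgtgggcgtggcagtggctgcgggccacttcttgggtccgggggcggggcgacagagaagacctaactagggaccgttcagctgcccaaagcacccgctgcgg
Tnfaip3 (chr10:19015361-19015660, minus strand): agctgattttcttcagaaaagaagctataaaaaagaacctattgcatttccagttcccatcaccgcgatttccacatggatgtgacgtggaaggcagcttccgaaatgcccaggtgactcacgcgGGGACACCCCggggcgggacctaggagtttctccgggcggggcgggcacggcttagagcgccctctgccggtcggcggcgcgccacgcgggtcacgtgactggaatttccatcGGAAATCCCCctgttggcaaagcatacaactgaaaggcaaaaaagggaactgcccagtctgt
Nfkb2, first start (chr19:46304487-46304786, plus strand): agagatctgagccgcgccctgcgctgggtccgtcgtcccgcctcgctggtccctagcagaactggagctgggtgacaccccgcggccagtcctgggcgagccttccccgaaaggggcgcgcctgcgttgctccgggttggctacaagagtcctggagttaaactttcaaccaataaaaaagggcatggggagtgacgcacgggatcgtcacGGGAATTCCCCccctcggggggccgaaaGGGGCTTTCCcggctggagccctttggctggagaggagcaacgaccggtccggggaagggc
Nfkb2, second start (chr19:46305445-46305744, plus strand): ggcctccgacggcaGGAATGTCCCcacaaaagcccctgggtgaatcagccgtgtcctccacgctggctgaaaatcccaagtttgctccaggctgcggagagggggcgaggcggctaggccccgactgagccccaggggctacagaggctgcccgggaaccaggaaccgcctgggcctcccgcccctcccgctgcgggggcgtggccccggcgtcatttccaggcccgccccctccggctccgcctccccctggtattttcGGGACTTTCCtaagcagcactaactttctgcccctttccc

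In Nfkbia, whose level did not pass the test, the match lay 29 bases before the start. In Nfkbie and Tnfaip3, which rose, matches lay 106 bases before the start and 125 and 12 bases before it. Nfkb2 had matches 39, 38 and 11 bases before its first start. In a second window of Nfkb2 the matches lay 236 bases before and 10 bases after the start. Genes with a match in these windows thus included 3 that rose and 1 that did not pass, and those without a match included 3 that rose and 1 that did not pass. A match is a run of letters and not evidence of binding, and other regions of these genes were not searched.

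Birc2 and Birc3 encode cellular inhibitors of apoptosis, ubiquitin ligases that sit on TNF receptor complexes, promote canonical NF-kB signalling and restrain the non-canonical pathway through degradation of the kinase NIK. Birc2 was at 561, 586 and 569.7 CPM in shArl4c, against 264, 273 and 273 CPM in shControl. Every shArl4c library had about 2.1 times the control level, with means of 572 ± 12.5 CPM in shArl4c and 270.3 ± 5.06 CPM in shControl (SD, n = 3) and a 2.12-fold difference (log2 fold change 1.08, SE 0.04, limma adjusted p = 6.27e-14). Birc3 was at 176, 181 and 163 CPM in shArl4c, against 105, 105 and 115 CPM in shControl. It rose 1.599-fold (log2 fold change 0.67, SE 0.05, limma adjusted p = 2.57e-09) without any overlap between the groups. The genes are paralogs, so the split of reads between them depends on the authors' counting.

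Birc2 and Birc3 are next to each other on chromosome 9, and the genes around them rose as well. The 16 nearest tested protein-coding genes of Birc2 in RefSeq order were taken, 8 on each side and Birc3 among them. Of these, 10 were higher in shArl4c, 2 were lower and 4 did not pass. Over all tested genes, 18.9% were higher and 18.0% lower. The median of the 16 log2 fold changes was 0.70. This look at neighbours and its width were chosen after the values were seen. On one side Tmem123, a transmembrane protein gene, was at 2142 ± 69.0 CPM in shArl4c and 1239 ± 29.9 CPM in shControl (log2 fold change 0.79). On the other side Yap1, the transcriptional coactivator of the Hippo pathway, was at 3822 ± 43.5 CPM in shArl4c and 1957 ± 61.7 CPM in shControl (SD, n = 3; log2 fold change 0.97, SE 0.04). Dync2h1, a heavy chain of the ciliary dynein motor, was at 1562 ± 110.1 CPM in shArl4c and 792 ± 7.55 CPM in shControl (log2 fold change 0.98), and Dcun1d5, a cullin neddylation factor, at 1152 ± 54.2 CPM in shArl4c and 569.8 ± 12.3 CPM in shControl (log2 fold change 1.01). Cfap300, next after Yap1, had a log2 fold change of 0.73.

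Not every gene in or beside this stretch rose. Between Dcun1d5 and Tmem123 lie the matrix metalloproteinase genes. Of these, Mmp3 (log2 fold change 1.51), Mmp8 (1.47), Mmp10 (0.90) and Mmp13 (0.49) rose and Mmp12 (0.10) did not pass. All but Mmp13 had means under 6 CPM in both groups. Beyond Cfap300, Cep126 (-0.46) and Maml2 (-0.70) were lower, and Arhgap42 (0.05), Jrkl (-0.02) and Ccdc82 (-0.20) did not pass. No gene beyond Dync2h1, at the other end, was examined. Levels along the stretch varied widely: by mean CPM in shControl, Yap1 ranked 26 of 14740 tested genes, Tmem123 43, Dync2h1 105, Dcun1d5 188, Birc2 609, Cfap300 1938 and Birc3 2062. In shArl4c Yap1 ranked 13, Tmem123 26, Dync2h1 34, Dcun1d5 48, Birc2 181, Cfap300 1001 and Birc3 1130. Around the other 8 genes, between 1 and 8 of the 16 neighbours were higher, against 18.9% of all tested genes. The medians of their log2 fold changes ran from -0.13 to 0.24, and the 8 higher neighbours belonged to Nfkb1. The number of gene copies was not measured, and the part of the shared position in the rise of Birc2 and Birc3 was not tested. Without Birc2 and Birc3, 5 of the remaining 8 genes were called higher, against 18.9% of all tested genes. Of these 5, Nfkb1 lost its call in 9 of the 18 alternative settings and Nfkb2 in 2.

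**Figure D3:**
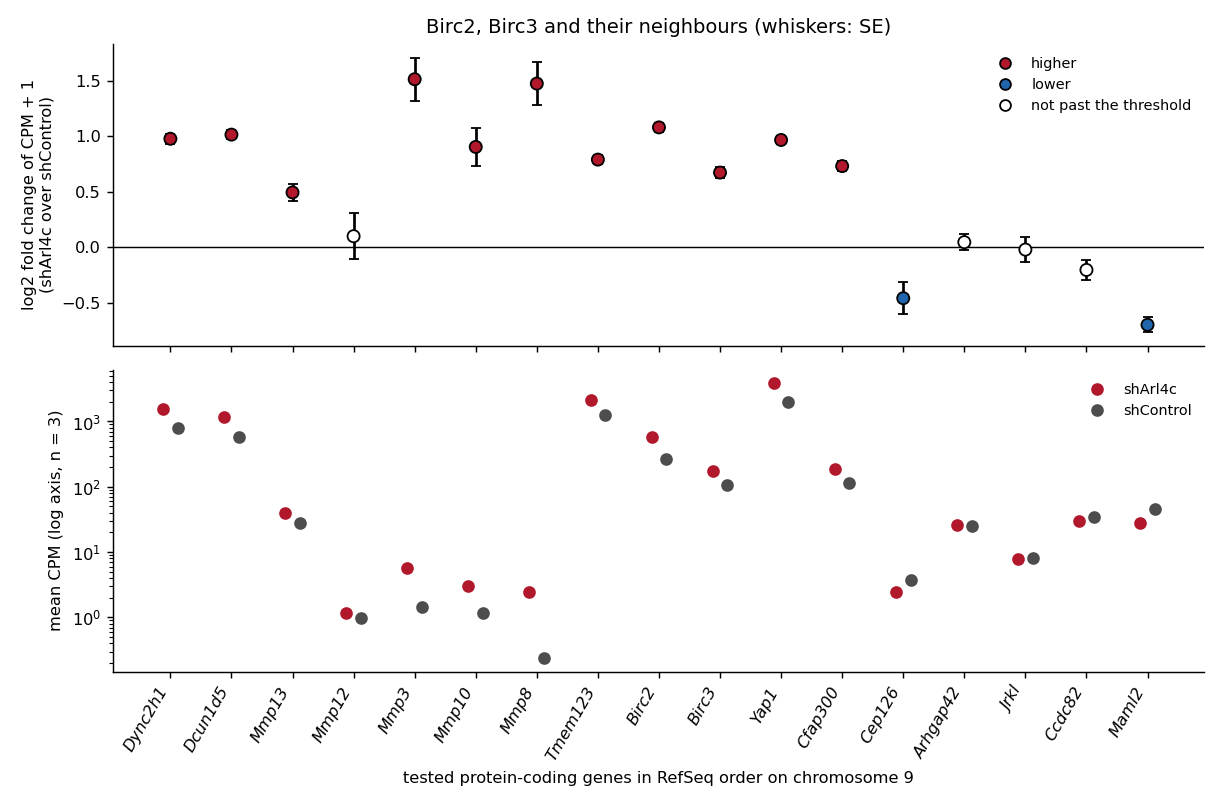
Birc2, Birc3 and the nearest tested protein-coding genes in RefSeq order on chromosome 9; the upper panel gives the log2 fold change of CPM + 1, shArl4c over shControl, with its SE, and the lower panel the mean CPM of each group on a log axis (n = 3). From Dync2h1 to Cfap300 all genes but Mmp12 are called higher, and the genes beyond Cfap300 lie at or below 0.05.

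Ptgs2 encodes the inducible cyclooxygenase, which makes the precursor of prostaglandins and is induced by inflammatory signals. It was at 91.4, 90.8 and 90.3 CPM in shArl4c, against 67.2, 68.9 and 67.8 CPM in shControl. The spread within each group was small, and the groups were far apart. The rise was 1.34-fold (log2 fold change 0.41, SE 0.05, limma adjusted p = 4.81e-07).

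Levels between genes were compared per kilobase of exons, with the exon length of each gene from GENCODE M21. Birc2 was the highest, at 157 ± 3.42 CPM per kb in shArl4c and 74.2 ± 1.39 in shControl, and Nfkbie the lowest, at 4.11 ± 0.564 CPM per kb in shArl4c and 2.95 ± 0.177 in shControl. In shControl the order was Birc2, Rela, Birc3, Nfkb1, Ptgs2, Nfkbia, Nfkb2, Relb, Tnfaip3 and Nfkbie. The libraries of neighbours in that order overlapped for Birc3 and Nfkb1 (25.5 ± 1.40 and 24.7 ± 1.82 CPM per kb) and for Nfkbia and Nfkb2 (13.3 ± 0.526 and 12.7 ± 0.499 CPM per kb). In shArl4c, Birc3 stood above Rela (40.8 ± 2.21 and 32.2 ± 1.85 CPM per kb) and Nfkb2 above Nfkbia (14.5 ± 0.249 and 13.6 ± 0.744 CPM per kb), the rest kept their places, and no neighbours overlapped.

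Ratios of CPM between related genes within a library do not depend on library scaling. The ratio of Birc3 to Birc2 was 0.313, 0.309 and 0.286 in shArl4c and 0.395, 0.386 and 0.421 in shControl. The groups did not overlap, and the difference of the log2 ratios, shArl4c minus shControl, was -0.40 (two-sided exact permutation p = 0.10, 0.13 adjusted over 4 ratios). With 3 libraries against 3, 0.10 is the smallest p that this test can give. Nfkbia over Nfkbie was 2, 1.94 and 2.56 in shArl4c and 2.65, 3.01 and 3.12 in shControl, a log2 difference of -0.44 (exact permutation p = 0.10, 0.13 adjusted over 4 ratios). Relb over Rela was 0.184, 0.207 and 0.191 in shArl4c and 0.222, 0.208 and 0.212 in shControl, a log2 difference of -0.14 with the same exact permutation p. Nfkb2 over Nfkb1, at 0.520, 0.543 and 0.568 in shArl4c and 0.542, 0.548 and 0.496 in shControl, overlapped between the groups (log2 difference 0.04, exact permutation p = 0.60).

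**Figure D4:**
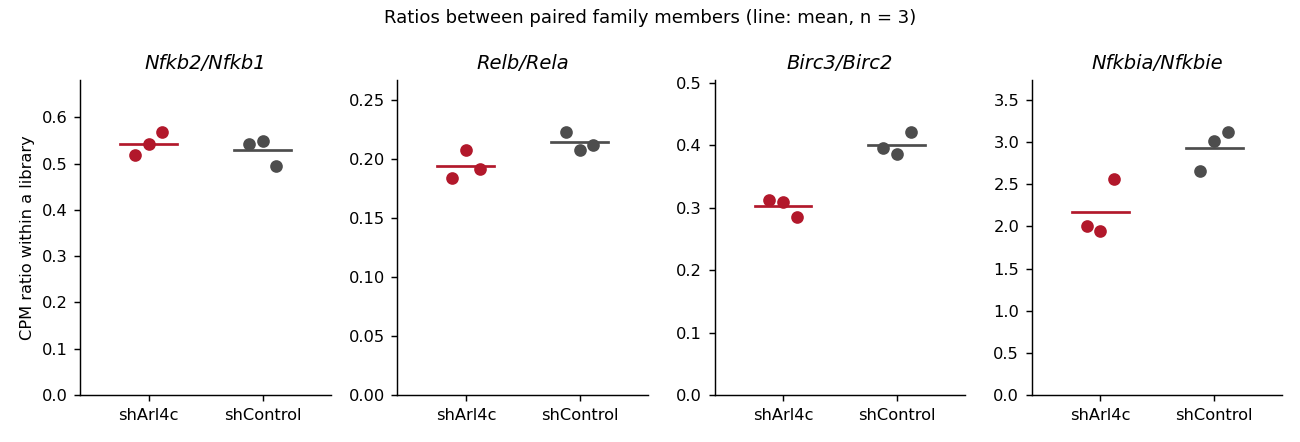
Ratio of CPM between related genes within each library, with 1 panel per ratio, shArl4c on the left and shControl on the right; lines are means (n = 3). Birc3/Birc2, Relb/Rela and Nfkbia/Nfkbie are lower in every shArl4c library than in any control library, and Nfkb2/Nfkb1 overlaps.

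The rest of the pathway was read from 8 lists of genes by role, 153 genes of which 119 were tested. Of these, 53 were higher and 12 lower in shArl4c, against 18.9% higher and 18.0% lower over all tested genes. The 119 genes had a median log2 fold change of 0.13. These lists too were chosen with earlier results of these data known. Among the other Rel and IkB proteins, 3 of 8 were higher and 1 was lower. The one that fell was Rel, encoding the subunit c-Rel, known best from lymphocytes: 36.2 ± 2.50 CPM in shArl4c and 54.98 ± 2.19 CPM in shControl (log2 fold change -0.59, SE 0.06, limma adjusted p = 2.41e-07). Bcl3, an atypical IkB protein that acts in the nucleus, was at 10.4 ± 0.377 CPM in shArl4c and 6.91 ± 0.401 CPM in shControl (log2 fold change 0.53), and Nfkbiz, another nuclear IkB protein, had a log2 fold change of 0.28. The third that rose was Nkrf, which encodes a repressor of NF-kB targets (0.24).

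Of 17 tested kinases of the IKK complex and their partners, 6 were higher, 2 were lower and 9 did not pass. Over all tested genes, 18.9% were higher and 18.0% lower. Map3k14, which encodes NIK, the kinase that the Birc2 and Birc3 proteins keep low, was at 31.0 ± 3.04 CPM in shArl4c and 23.6 ± 0.884 CPM in shControl (log2 fold change 0.38, SE 0.07, limma adjusted p = 0.00053). Tab2, an adaptor of the kinase TAK1, fell (log2 fold change -0.45) and its relative Tab3 rose (0.32); the other that fell was Map3k7, which encodes TAK1 (-0.19). Of 18 tested TRAFs, adaptors and ubiquitin ligases, 6 were higher and 2 lower, and the lead genes by p were Rbck1 (log2 fold change 0.24) and Rnf31 (0.29), both of the linear ubiquitin ligase complex, and the kinase gene Irak4 (0.35). Traf5 (-0.35) and Irak2 (-0.27), signalling adaptor genes, fell. Of 12 tested deubiquitinases and other brakes, 6 were higher and 1 lower: Otud7b, a deubiquitinase gene, had a log2 fold change of 0.28, Pdlim2, a gene for a nuclear ubiquitin ligase of Rela, one of 0.37, and Rnf11, a partner of the Tnfaip3 protein, one of -0.32.

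Ligands and receptors went both ways, with 4 higher, 4 lower and 7 not passing of 15 tested. Over all tested genes the shares were 18.9% higher and 18.0% lower. The receptor gene Tnfrsf1b was at 27.8 ± 0.859 CPM in shArl4c and 17.9 ± 1.04 CPM in shControl (log2 fold change 0.61), and Il1rap, the accessory chain of the interleukin-1 receptor, had a log2 fold change of 0.52. The receptor genes Tnfrsf1a (0.15) and Tlr4 (0.21) also rose. Il1rn, which encodes the antagonist of that receptor, was at 56.7 ± 3.43 CPM in shArl4c and 95.3 ± 3.12 CPM in shControl (log2 fold change -0.74, SE 0.05, limma adjusted p = 1.27e-09). The ligand gene Eda (-1.21, at 0.544 CPM in shArl4c and 2.53 CPM in shControl) and the receptor genes Eda2r (-0.82) and Tlr2 (-0.53) also fell. The ligand genes Tnf and Il1b were not listed in the table, and Lta, Ltb and Il1a were listed at a mean under 1 CPM and were not tested.

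Of 24 tested other NF-kB target genes, 13 were higher, against 18.9% of all tested genes, 1 was lower and 10 did not pass. Their median log2 fold change was 0.24. Plau, the urokinase gene, was at 71.6 ± 3.78 CPM in shArl4c and 39.8 ± 1.45 CPM in shControl (log2 fold change 0.83, SE 0.06, limma adjusted p = 5.67e-10). Bcl2l1, which encodes the survival protein Bcl-xL, was at 70.9 ± 0.801 CPM in shArl4c and 44.5 ± 0.319 CPM in shControl (log2 fold change 0.66), and Irf1, an interferon regulatory factor gene, at 101 ± 1.76 CPM in shArl4c and 67.4 ± 1.85 CPM in shControl (log2 fold change 0.58). Mmp3, given above among the neighbours of Birc2, is 1 of the 13, and the one that fell was the stress gene Gadd45b (log2 fold change -0.16). Of the IAP family and its antagonists, 5 of 10 tested were higher and 5 did not pass. Among them were the mitotic gene Birc5 (log2 fold change 0.38), the IAP antagonist gene Htra2 (0.33) and the inflammasome receptor gene Naip2 (0.94, at 2.58 CPM in shArl4c and 0.856 CPM in shControl).

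Of 15 tested genes of the prostaglandin pathway, in which Ptgs2 acts, 10 were higher, 1 was lower and 4 did not pass. The share called higher over all tested genes was 18.9%. Ptgs1, the constitutive cyclooxygenase gene, was at 198 ± 8.70 CPM in shArl4c and 131 ± 3.53 CPM in shControl (log2 fold change 0.59, SE 0.04, limma adjusted p = 2.6e-09). Ptges, a prostaglandin E synthase gene, was at 54.9 ± 2.60 CPM in shArl4c and 37.0 ± 0.860 CPM in shControl (log2 fold change 0.56), and Abcc4, an exporter of prostaglandins, at 123 ± 2.11 CPM in shArl4c and 62.7 ± 3.12 CPM in shControl (log2 fold change 0.96). The one that fell was Ptger1, a receptor gene for prostaglandin E (-0.71).

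**Figure D5:**
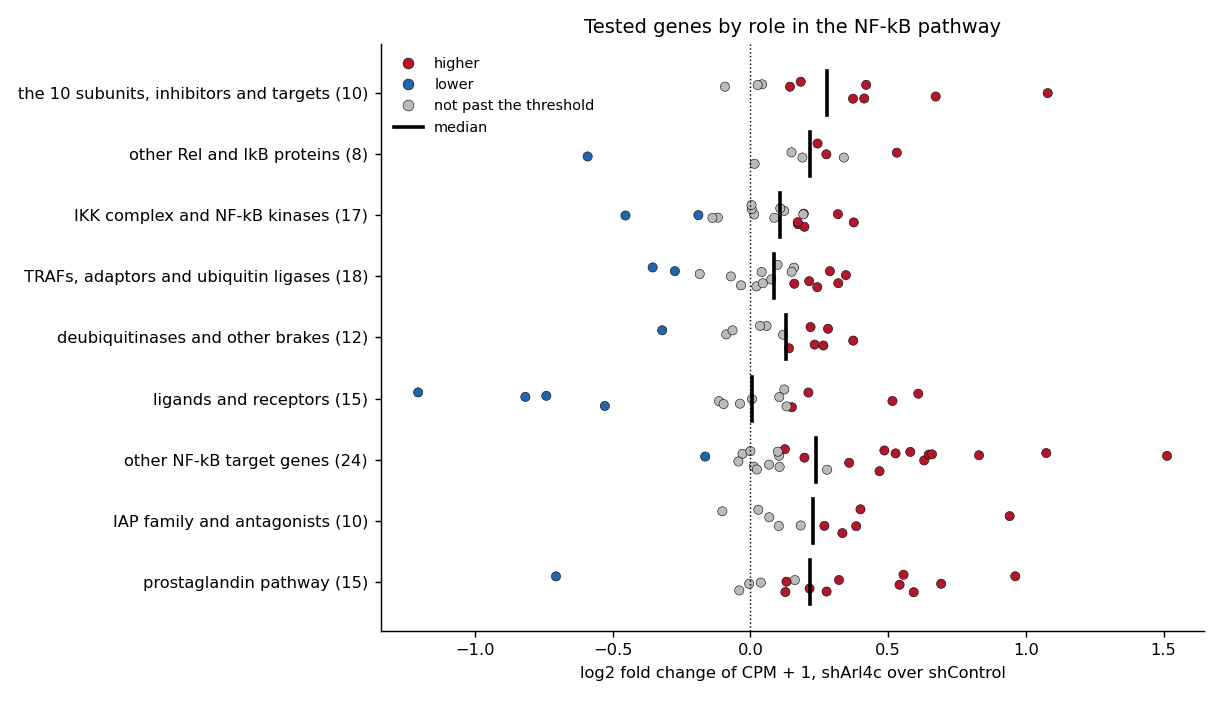
Log2 fold changes of CPM + 1, shArl4c over shControl, of the tested genes of the pathway on the x axis, by role, with the number tested in brackets; red points were called higher, blue points lower and grey points neither, and the black bar is the median of the list. Medians run from 0.0057 for ligands and receptors to 0.28 for the 10 subunits, inhibitors and targets.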

How the data were processed

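The authors deposited 1 table of CPM values per gene and library. The CPM of a library summed to between 969971 (shArl4c 3) and 1019097 (shControl 3), so reads were not scaled to library totals alone. Rescaling by TMM, an edgeR scaling between libraries, gave the same count of genes called higher as the deposited values, 2790. With CPM scaled to equal totals, 3419 genes were called higher. Per the submitters' processing notes, the tools were edgeR, Bowtie2, RSEM 1.3.0 and Trimmomatic 0.38, and the build GRCm39; order, settings and strand handling are not given in the sources used here. Per the labels' protocols, total RNA was made into libraries with a directional MGI kit. All deposited CPM values (100%) fell on whole steps of 1 read (within 0.001 of a read), so read counts were recovered. The lowest total of a listed gene was 6 reads.

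Columns carry names other than the sample titles and were assigned to groups only; libraries are called by the column numbers, shArl4c 2 to 4 and shControl 1 to 3. Of the identifiers, 21880 matched a gene symbol. Genes whose mean over the 6 libraries reached 1 CPM were fitted on log2(CPM + 1) with limma 3.58.1 (R 4.3.3; intensity trend, robust moderation, no covariate) with Benjamini-Hochberg adjustment over the 14740 genes tested, and a call at an adjusted p under 0.05. Steps were tested on simulated data. Recovered reads were tested with edgeR 4.0.16 and DESeq2 1.42.0.

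The 10 genes and the lists were chosen with earlier results of these data known. Named from each list were the 3 genes past the threshold with the smallest p; any other gene named was chosen after its values were seen. Some genes of the lists are not reported here by name. Alternatives were other pseudocounts, filters, scalings, moderation and tests, and leaving out each library.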

Additional observations from a re-analysis of the deposited data

How the results depend on the processing

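Under 18 alternative settings, between 5 and 7 of the 10 genes were called higher and none lower, and the calls of Birc2, Birc3, Ptgs2, Tnfaip3 and Nfkbie held in each. Nfkb1 lost its call in 9 settings (adjusted p from 0.0082 to 0.25 over all) and Nfkb2 in 2 (from 0.00088 to 0.067); the cause was not tested. With 1 library left out at a time, the log2 fold change of Nfkbia ran from -0.0050 (without shArl4c 2) to 0.069, and the log2 difference of Nfkb2 over Nfkb1 from -0.0044 (without shControl 3) to 0.072. Calls over all genes ran from 2000 to 3639 higher and from 2108 to 3246 lower, and those of the other pathway genes from 37 to 65 higher and from 10 to 13 lower. The count of Birc2 neighbours called higher, added after seeing the data, ran from 7, with only genes of at least 5 CPM tested, to 10. With the looser motif, 7 genes had a match instead of 4. No paired analysis was possible because the shArl4c columns carry the numbers 2 to 4, which differ from the replicate numbers of the labels. Nfkbie, with as few as 85 reads, had the widest interval of the 10 genes.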
